A study of Mus musculus with 8 samples.

Results

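The DNA replication machinery was described through 48 mouse genes that license origins, unwind DNA, copy it, join the copied pieces and supply nucleotides. Members were taken from a list of gene symbols, and all 48 were found among the 24385 gene features of the deposited expression table. All 48 were also among the 10018 tested genes, those that averaged 1 FPKM or more over the 8 libraries, where FPKM counts fragments scaled to transcript length and to the mapped fragments of the library. RNA sequencing had been done on whole hearts of C57BL/6 mouse embryos at embryonic day 8.5 (E8.5) and embryonic day 9.5 (E9.5), to compare control hearts with hearts lacking *Dgcr8*. DGCR8 is the RNA-binding partner of Drosha in the microprocessor, which cuts primary microRNA transcripts into hairpins. Every embryo carried 2 loxP alleles of *Dgcr8* and 1 *Rosa26* mT/mG reporter allele (the second being wild type). Controls, labelled wild type (WT), had no Cre, and conditional knockouts (cKO, labelled Mesp1Cre/+; Dgcr8-/-) had Cre knocked into 1 *Mesp1* allele. All 4 groups therefore shared the floxed gene and the reporter, and the cKO groups alone carried the *Mesp1* Cre allele, so that the 2 genotypes also differed in Cre and in 1 *Mesp1* allele. Deletion in these embryos reaches only *Mesp1* descendants, and cells of other origin in the heart keep *Dgcr8*. Each group had 2 biological replicates, and the number of embryos behind a library is not given in the sources used here.

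Replication is prepared in G1, when the origin recognition complex, CDC6 and CDT1 load rings of MCM2 to MCM7 onto DNA. Kinases, CDC45 and the GINS complex then turn each ring into a moving helicase. Polymerase alpha with primase starts every strand, polymerases epsilon and delta extend it on the PCNA clamp, and ribonucleotide reductase supplies the deoxynucleotides. Transcripts of many of these genes peak around the entry into S phase under E2F control, and embryonic cardiomyocytes divide actively at these stages.

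*Dgcr8* itself (chr16:18253965-18289168, mouse build GRCm38) measured 7.10 and 8.60 FPKM in WT at E8.5, where cKO measured 1.64 and 4.67 FPKM. WT measured 3.49 and 3.23 FPKM at E9.5, where cKO measured 1.15 and 1.77 FPKM. The cKO libraries were below the WT libraries at both stages without overlap, although neither difference passed the test (limma, adjusted p = 0.399 at E9.5 and 0.9996 at E8.5). Relative sequencing depth, read from the steps of low FPKM values, spanned 1.45-fold over the 8 libraries. E8.5 cKO replicate 2 stood apart: decidual markers summed to 6732 FPKM there against 921 FPKM in replicate 1, and *Dgcr8* was highest there among the 4 cKO libraries. E8.5 cKO replicate 1 also stood apart: yolk sac endoderm markers summed to 7032 FPKM there, against 2051 FPKM in replicate 2 and 780 and 2688 FPKM in E8.5 WT. Primitive erythroid markers were also highest at E8.5 in that replicate 1, at 39592 FPKM. At E8.5, leukocyte markers had sums of 431 and 102 FPKM for WT and 9.13 and 313 FPKM for cKO, and at E9.5 sums of 9.92 to 15.4 FPKM. All 10 cardiomyocyte markers were tested and summed to between 28301 and 86792 FPKM, and none was at 0 in both libraries of a group, while none of 6 neural markers was tested, with sums of at most 1.43 FPKM.

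At E9.5 the replication genes were lower in cKO hearts than in WT hearts as a body, and no single member passed the test. Levels were compared as log2(FPKM + 1) relative to the median tested gene of the same library, with calls made at 1.5-fold or more and an adjusted p under 0.05. The median member was lower by 1.38-fold (log2 -0.46, quartiles -0.70 and -0.21), beside a median of -0.01 and quartiles of -0.33 and 0.28 over all tested genes. Of the 48 members, 45 were below 0, beside 50.6% of all tested genes, and 29 had both cKO libraries below both WT libraries, beside 24.9% of all genes. Under other scalings, another pseudocount and no filter, 41 to 47 of the 48 were below 0. *Pold1* alone had its cKO libraries above without overlap, beside 26.1% of all genes. With limma, 0 members were called lower and 0 higher (background 0.00998% and 0.309%), while at an unadjusted p under 0.05 there were 11 lower and 0 higher (background 7.70% and 6.70%). In such bulk tissue, fewer cells of a cycling type and less RNA per cell cannot be told apart.

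The 11 members came from 6 of the 8 role groups: *Rrm2* and *Rrm1* of nucleotide supply, *Mcm4*, *Mcm6* and *Gmnn* of licensing, *Cdc7* and *Gins3* of helicase activation, *Prim1* of the primase, *Pcna* and *Rpa1* at the fork, and *Orc6* of origin recognition. This count rested on individual libraries. Without E9.5 cKO replicate 1 it was 2 (background 2.18%), without E9.5 WT replicate 2 it was 6 (background 3.95%), and without E9.5 cKO replicate 2 it was 17 (background 9.54%). The median difference was -0.29 without cKO replicate 1 and -0.55 without cKO replicate 2. Fitting only the 4 E9.5 libraries gave 1 call among the members, *Rrm2* (adjusted p = 0.0416), and 16 lower and 98 higher calls over all genes (0.160% and 0.978%).

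**Figure D1:**
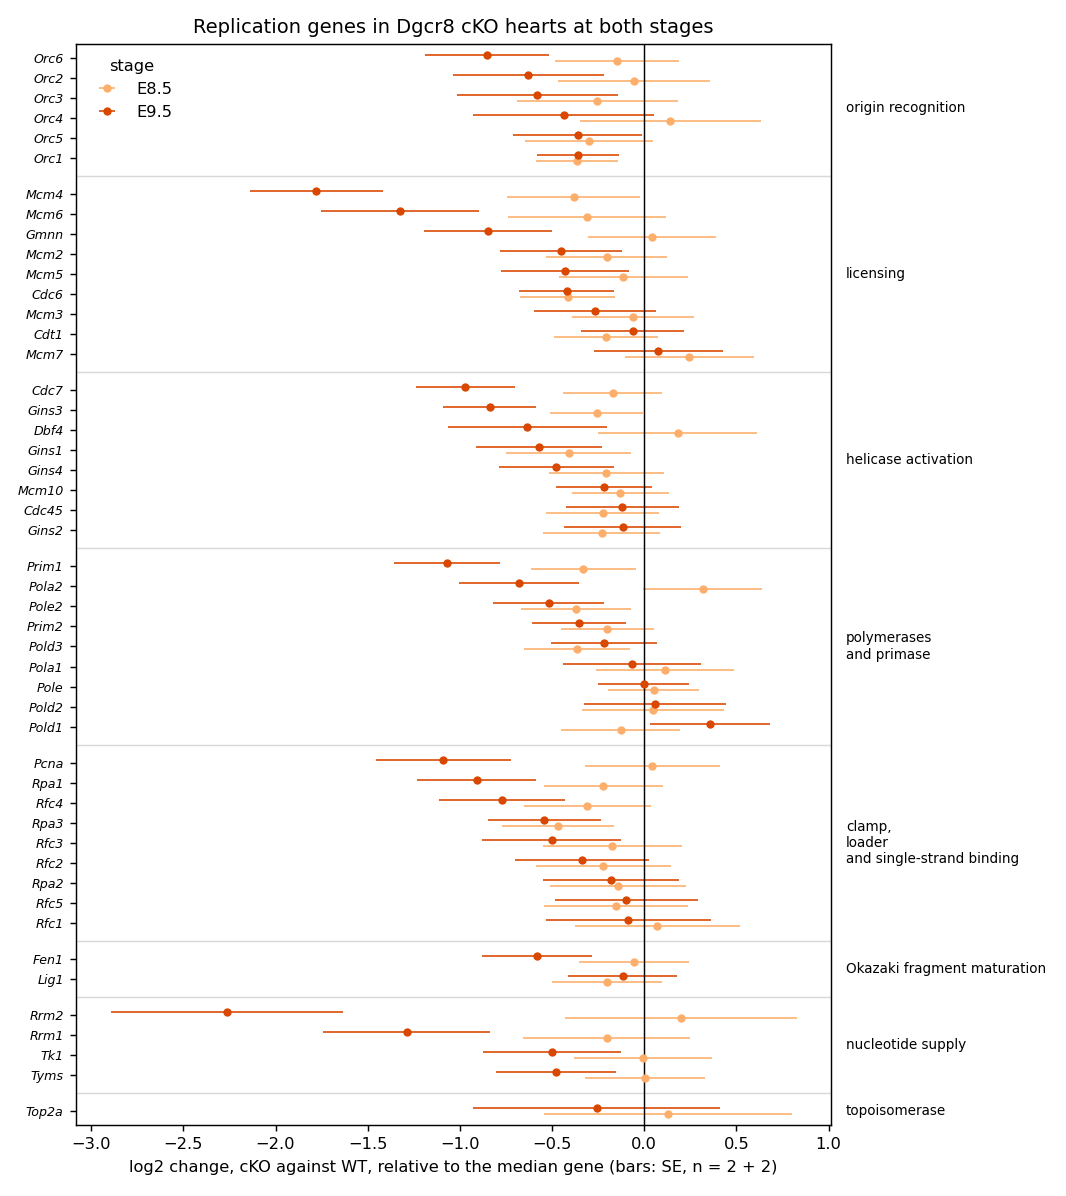
Log2 difference between cKO and WT for each of the 48 replication genes at E8.5 (light) and E9.5 (dark), relative to the median gene, with bars of 1 SE from the limma fit on 2 libraries a group. At E9.5, 45 of 48 points lie left of 0, from -2.27 for *Rrm2* to 0.36 for *Pold1*, and at E8.5 every point lies between -0.47 and 0.32. Under another scaling the E9.5 points of *Mcm7*, *Pold2*, *Gins2*, *Rfc1*, *Top2a*, *Cdt1*, *Rfc5*, *Rpa2*, *Pola1* and *Pole* take the other sign.

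Nucleotide supply held the member with the lowest value. *Rrm2*, the small subunit of ribonucleotide reductase (chr12:24708254-24714146), was at 196 and 259 FPKM in WT at E9.5 and at 30.5 and 63.2 FPKM in cKO. Both cKO libraries were below both WT libraries, by 4.81-fold on the relative scale (log2 -2.27, SE 0.63, adjusted p = 0.170). *Rrm1*, the large subunit, was at 74.9 and 96.2 FPKM in WT and at 20.8 and 50.9 FPKM in cKO (log2 -1.29, SE 0.45, adjusted p = 0.251), and its cKO replicates were farther apart than those of any other member, by 1.43 on the log2 scale. The 2 subunits form 1 enzyme, and the ratio of *Rrm2* to *Rrm1* FPKM, which a single scaling factor per library cannot move, was 2.62 and 2.69 for WT at E9.5 and 1.47 and 1.24 for cKO. At E8.5 that ratio was 3.64 and 3.09 in WT and 2.12 and 9.34 in cKO. The high ratio was in cKO replicate 2, where *Rrm2* was at 525 FPKM against 142 FPKM in replicate 1, the widest gap of any member in that group. *Tk1*, thymidine kinase of the salvage pathway, and *Tyms*, which makes thymidylate, were less far from WT at E9.5, with log2 differences of -0.50 and -0.48. *Tyms* was at 24.5 and 18.5 FPKM in WT and at 12.9 and 15.8 FPKM in cKO, so that neither gene overlapped between genotypes.

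Licensing factors spanned the widest range of any role group at E9.5, from a log2 difference of -1.78 for *Mcm4* to 0.08 for *Mcm7*. *Mcm4* (chr16:15623897-15637400), a subunit of the MCM2 to MCM7 ring, was at 22.8 and 41.0 FPKM in WT at E9.5 and at 6.58 and 9.25 FPKM in cKO. Its libraries did not overlap, and its SE of 0.36 gave the smallest adjusted p of any member at this comparison, 0.101. *Mcm6* was at 109 and 133 FPKM in WT and at 30.2 and 68.0 FPKM in cKO (log2 -1.32, SE 0.43, adjusted p = 0.225). Both are neighbours in the same ring and were below WT in both cKO libraries. *Mcm7* (chr5:138164589-138171862) was at 158 and 144 FPKM in WT and at 134 and 173 FPKM in cKO. These libraries overlapped, and the difference of 0.08 (SE 0.35) became -0.16 when libraries were centred within deciles of transcript GC content. *Mcm2*, *Mcm5* and *Mcm3* lay in between, at -0.45, -0.43 and -0.27. Of the loading factors, *Cdc6* was at -0.42 and *Cdt1* at -0.06 (0.05 after quantile normalization), while *Gmnn*, which encodes geminin, the inhibitor of CDT1, was at 68.1 and 80.4 FPKM in WT and at 29.8 and 50.5 FPKM in cKO (log2 -0.85, SE 0.35, adjusted p = 0.317).

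The 6 ring subunits assemble in equal number, so the make-up of their transcripts was compared inside each library. *Mcm7* took 41.2% and 40.3% of the summed *Mcm2* to *Mcm7* FPKM in the E9.5 cKO libraries and between 22.6% and 30.7% in the other 6 libraries. *Mcm4* took 2.02% and 2.16% in E9.5 cKO and between 4.34% and 8.88% elsewhere. *Mcm6* took 9.28% and 15.8% in E9.5 cKO and between 17.2% and 24.7% elsewhere. The E9.5 cKO libraries thus lay outside the range of the other 6 for these 3 subunits, in shares that a single scaling factor per library cannot move but a correction that differs between genes, such as by GC content, can, and these pairs and shares were chosen after the values were seen. The ratio of *Mcm4* to *Mcm7* was 0.144 and 0.284 for WT at E9.5 and 0.0491 and 0.0535 for cKO. *Mcm2*, *Mcm3* and *Mcm5* took shares of between 11.3% and 16.8% in every library. The *Mcm7* locus also holds the hairpins *Mir106b*, *Mir93* and *Mir25* (between chr5:138165321 and chr5:138165818), whose own entries in the table were at 0 FPKM, and whether intronic reads count toward *Mcm7* is not given in the sources used here.

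**Figure D2:**
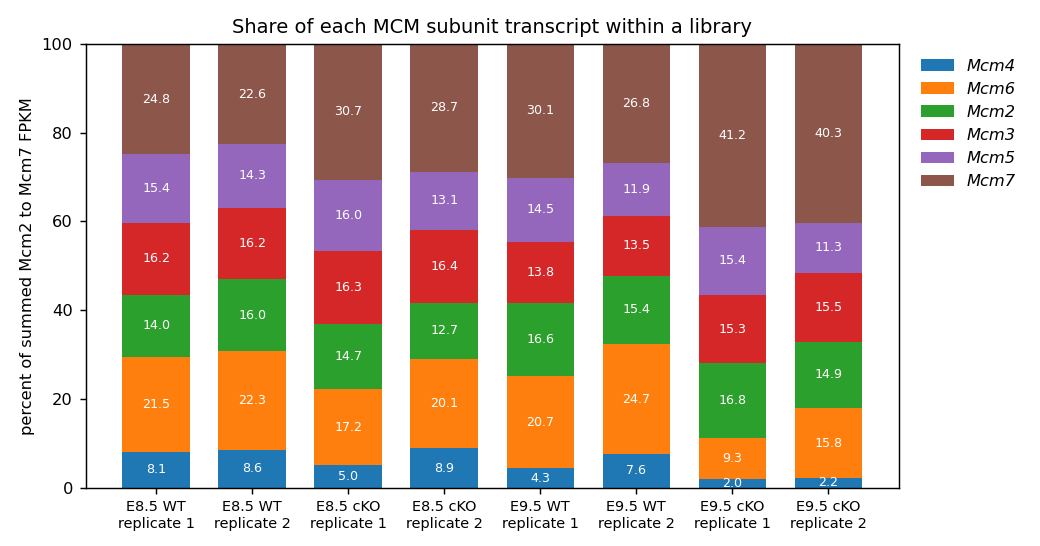
Percent of the summed *Mcm2* to *Mcm7* FPKM taken by each subunit in each of the 8 libraries, 1 stacked bar per library. The *Mcm7* segment is 41.2% and 40.3% in the E9.5 cKO libraries and at most 30.7% in the others, and the *Mcm4* segment is 2.02% and 2.16% against at least 4.34%.

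Upstream sequence was examined because many replication genes are E2F targets. RefSeq promoters (GRCm38) were matched for 40 of the 48 members, and the 250 bases before each start were searched on both strands for TTTCCCGC, TTTCGCGC, TTTGCCGC and TTTGGCGC, where matches may overlap. At least 1 match stood upstream of 9 members (22.5%), beside 2.16% of 27025 genes and 4.28% of 7665 tested genes. The 9 were *Orc1*, *Orc3*, *Cdc6*, *Mcm5*, *Mcm6*, *Mcm7*, *Gins3*, *Pola1* and *Rfc3*. CCAAT stood upstream of 24 members (60.0%), beside 37.5% of genes and 41.3% of tested genes, and TTTGAA upstream of 7 (17.5%), beside 18.3% and 12.4%. The 180 bases before the start are shown for 3 ring subunits that took different places in the E9.5 range and for *Gins3*, each 5′ to 3′ on the strand of its gene with the matches in capitals.
Mcm5, chr8:75109329-75109508, plus strand: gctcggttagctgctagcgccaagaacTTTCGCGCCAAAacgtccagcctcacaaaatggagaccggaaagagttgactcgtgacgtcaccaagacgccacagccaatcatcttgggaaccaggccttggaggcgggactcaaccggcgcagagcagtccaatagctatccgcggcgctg
Mcm6, chr1:128359706-128359885, minus strand: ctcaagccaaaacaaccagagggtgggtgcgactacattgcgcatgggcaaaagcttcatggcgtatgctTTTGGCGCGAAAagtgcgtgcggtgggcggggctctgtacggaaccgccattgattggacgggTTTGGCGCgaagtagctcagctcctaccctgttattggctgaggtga
Mcm7, chr5:138171884-138172063, minus strand: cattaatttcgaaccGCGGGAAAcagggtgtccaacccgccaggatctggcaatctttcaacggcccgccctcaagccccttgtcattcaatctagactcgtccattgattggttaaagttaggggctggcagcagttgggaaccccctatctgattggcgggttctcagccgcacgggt
Gins3, chr8:95633379-95633558, plus strand: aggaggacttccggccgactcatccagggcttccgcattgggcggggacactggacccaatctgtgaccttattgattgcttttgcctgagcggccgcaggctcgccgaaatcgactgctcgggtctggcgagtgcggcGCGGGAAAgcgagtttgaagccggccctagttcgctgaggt
*Mcm6* had 3 matches, of which the first 2 overlapped, *Mcm5* had 2 overlapping matches, and *Mcm7* and *Gins3* had 1 each. At E9.5 the median log2 difference was -0.43 over the members with a match (n = 9) and -0.48 over those with a promoter but no match (n = 31). *Mcm6* at -1.32 and *Mcm7* at 0.08 were the lowest and the highest of the 9, and *Rrm2* at -2.27 was among the members without a match.

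Helicase activation genes were all below WT at E9.5, with a median of -0.52 over 8 members, except that *Gins2* was above 0 after quantile normalization. *Cdc7*, the kinase that phosphorylates the loaded ring (chr5:106964322-106984439), was at 4.96 and 6.27 FPKM in WT and at 1.95 and 2.50 FPKM in cKO (log2 -0.97, SE 0.27, adjusted p = 0.170). Its activating subunit *Dbf4* was at 1.78 and 3.59 FPKM in WT and at 1.73 and 0.780 FPKM in cKO (log2 -0.63, adjusted p = 0.547). Both genes were without overlap between genotypes, narrowly so for *Dbf4*. *Gins3*, a subunit of the GINS complex, was at 4.41 and 4.52 FPKM in WT and at 1.75 and 2.10 FPKM in cKO (log2 -0.84, SE 0.25, adjusted p = 0.193). *Gins2*, of the same 4-part complex, was at 46.5 and 38.03 FPKM in WT and at 42.0 and 32.5 FPKM in cKO, which overlapped (log2 -0.12, and 0.08 after quantile normalization). *Gins1* and *Gins4* were at -0.57 and -0.48, *Mcm10* at -0.22 and *Cdc45* at -0.12.

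Polymerase and primase genes had the median closest to 0 among the larger groups, -0.22 over 9 members, and held 2 of the 3 members above 0. *Prim1*, the catalytic primase subunit (chr10:128015215-128030030), was at 13.1 and 17.2 FPKM in WT at E9.5 and at 5.69 and 6.94 FPKM in cKO. Its libraries were well apart, by 2.10-fold on the relative scale (log2 -1.07, SE 0.29, adjusted p = 0.168). The ratio of *Prim1* to its partner *Prim2* was 1.57 and 1.99 for WT at E9.5 and 0.983 and 1.09 for cKO, beside 1.55 to 1.82 in the E8.5 libraries. *Pola2*, the accessory subunit of polymerase alpha, was at -0.68, and *Pola1*, the catalytic subunit, at -0.07 (0.09 when centred within GC deciles). *Pold1*, the catalytic subunit of polymerase delta (chr7:44532744-44548815), was at 17.4 and 14.3 FPKM in WT and at 22.3 and 17.2 FPKM in cKO. Relative to the median gene its cKO libraries were above both WT libraries, by 0.36 (SE 0.32, adjusted p = 0.678). *Pold2*, an accessory subunit of polymerase delta and the most abundant of the group, was at 59.9 and 51.1 FPKM in WT and at 59.4 and 51.2 FPKM in cKO. These libraries overlapped, with a difference of 0.06, or -0.25 when centred within GC deciles. *Pold3* was at -0.22, and the polymerase epsilon genes *Pole* and *Pole2* at -0.00 and -0.52, where *Pole* was above 0 under median-ratio scaling and within GC deciles.

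Clamp, loader and single-strand binding genes were all below WT at E9.5, with a median of -0.50 over 9 members, except that *Rfc1* was above 0 when centred within GC deciles, and *Rfc5* (0.10) and *Rpa2* (0.01) after quantile normalization. *Pcna*, the sliding clamp (chr2:132249286-132253180), was at 201 and 196 FPKM in WT and at 65.9 and 119 FPKM in cKO. The cKO libraries were below WT without overlap (log2 -1.09, SE 0.37, adjusted p = 0.236). *Rpa1*, the large subunit of the single-strand binding complex, was at 47.1 and 50.8 FPKM in WT and at 20.6 and 29.0 FPKM in cKO (log2 -0.91, SE 0.32, adjusted p = 0.256). Its partners *Rpa3* and *Rpa2* were at -0.54 and -0.18. Among the clamp loader genes, *Rfc4* was at -0.77, *Rfc3* at -0.50, *Rfc2* at -0.34, *Rfc5* at -0.10 and *Rfc1* at -0.09, with 0.20 for *Rfc1* when centred within GC deciles. *Rfc1*, the large subunit of the loader, was at 1.33 and 5.26 FPKM in WT and at 3.46 and 1.65 FPKM in cKO, so that the cKO libraries lay between those of WT. *Rfc4* overlaps *Eif4a2* (mean 38.04 FPKM) on the map and the use of strand in counting is not given in the sources used here, so the 2 genes could not be separated with certainty. The same limit touches *Orc3*, *Orc4*, *Orc5*, *Gins2*, *Pold2* and *Tk1*, each of which overlaps another tested feature.

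Origin recognition genes had a median of -0.51 at E9.5 over 6 members. *Orc6* was at 31.7 and 36.5 FPKM in WT at E9.5 and at 13.6 and 22.6 FPKM in cKO (log2 -0.85, SE 0.34, adjusted p = 0.302). The other 5 ORC subunits were between -0.63 for *Orc2* and -0.36 for *Orc1*, and *Orc1* was at 1.47 and 1.61 FPKM in WT and at 0.855 and 0.934 FPKM in cKO. Only *Orc6* and *Orc1* were without overlap between genotypes. *Orc2*, *Orc3* and *Orc4* had a cKO library above WT replicate 1, and at E9.5 each was highest in WT replicate 2. *Orc4* was at 1.27 and 6.60 FPKM in the 2 WT libraries and at 2.74 and 1.30 FPKM in cKO, so its difference of -0.44 turned to 0.41 without WT replicate 2. *Fen1*, the flap nuclease, was at 57.4 and 50.5 FPKM in WT and at 30.8 and 37.6 FPKM in cKO (log2 -0.58, SE 0.30, adjusted p = 0.422). *Lig1*, the ligase that seals Okazaki fragments, was at 21.0 and 15.6 FPKM in WT and at 16.3 and 15.5 FPKM in cKO (log2 -0.12). *Top2a*, the topoisomerase of dividing cells, was at 7.41 and 40.5 FPKM in WT and at 21.9 and 8.74 FPKM in cKO, so that each genotype had a high and a low library, and its difference of -0.26 was 0.00 when centred within GC deciles.

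**Figure D3:**
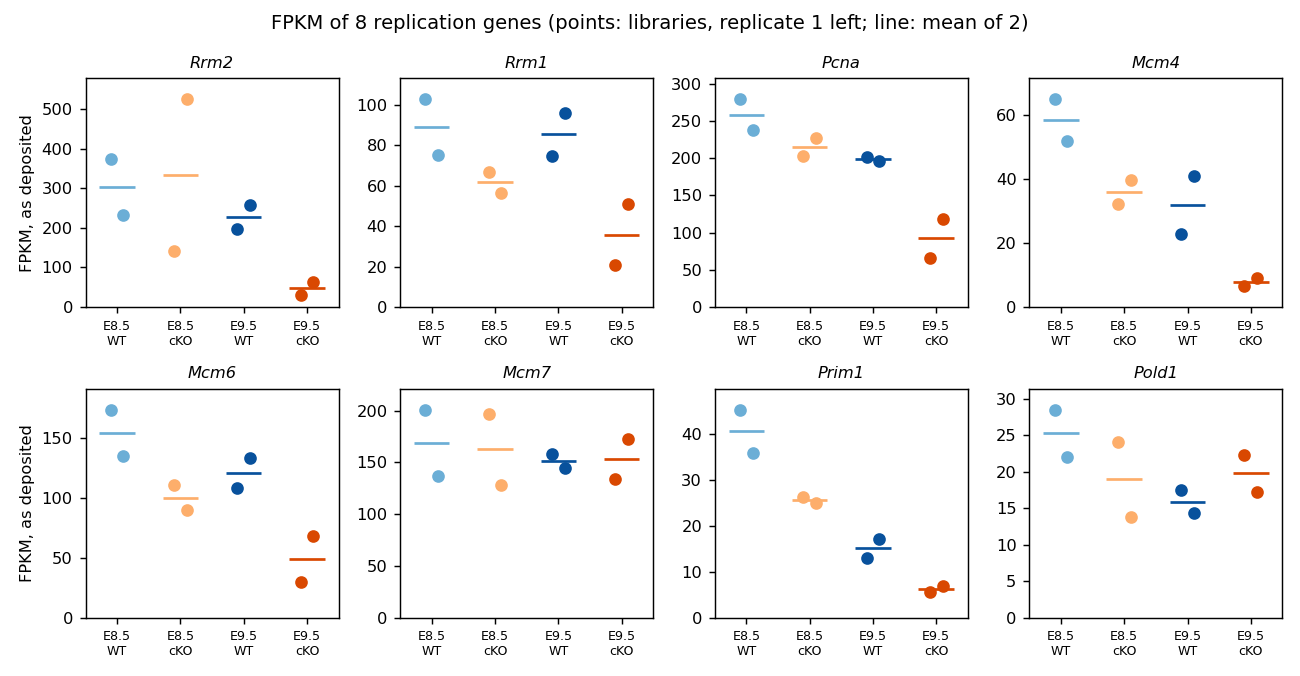
Deposited FPKM of 8 replication genes by group, 1 point per library and a line at the mean of 2. E9.5 cKO is the lowest group for *Rrm2*, *Rrm1*, *Pcna*, *Mcm4*, *Mcm6* and *Prim1*, while *Mcm7* (134 and 173 FPKM) and *Pold1* (22.3 and 17.2 FPKM) reach the levels of E9.5 WT. The linear axes start at 0, and levels are not corrected for the lower median FPKM of E9.5 libraries.

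Several measured quantities moved with this comparison. At E9.5, cardiomyocyte markers summed to 63636 and 61916 FPKM for WT and to 86792 and 85834 FPKM for cKO, and 9 of 10 were higher. Epicardial markers summed to 37.02 and 23.6 FPKM in WT and to 13.5 and 13.3 FPKM in cKO, with 0 of 5 tested markers higher. Primitive erythroid markers summed to 16365 and 34098 FPKM in WT and to 44970 and 33242 FPKM in cKO, and endothelial markers to 66.1 and 72.0 FPKM in WT and to 89.7 and 88.5 FPKM in cKO, with 7 of 8 and 6 of 8 higher. Their part in the result was not tested. The members had a median transcript GC content of 48.1%, beside 50.7% over all tested genes with a value. Across the 48 members the E9.5 difference had a Spearman correlation of 0.43 with GC content, beside 0.41 across 9657 genes, and the gap between the 2 E9.5 WT replicates correlated with GC content at -0.69, beside -0.63. These are descriptions across genes that share libraries. Centred within GC deciles, the members' median was -0.37 and 12 were lower at an unadjusted p under 0.05 (background 9.28%), with 0 called.

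**Figure D4:**
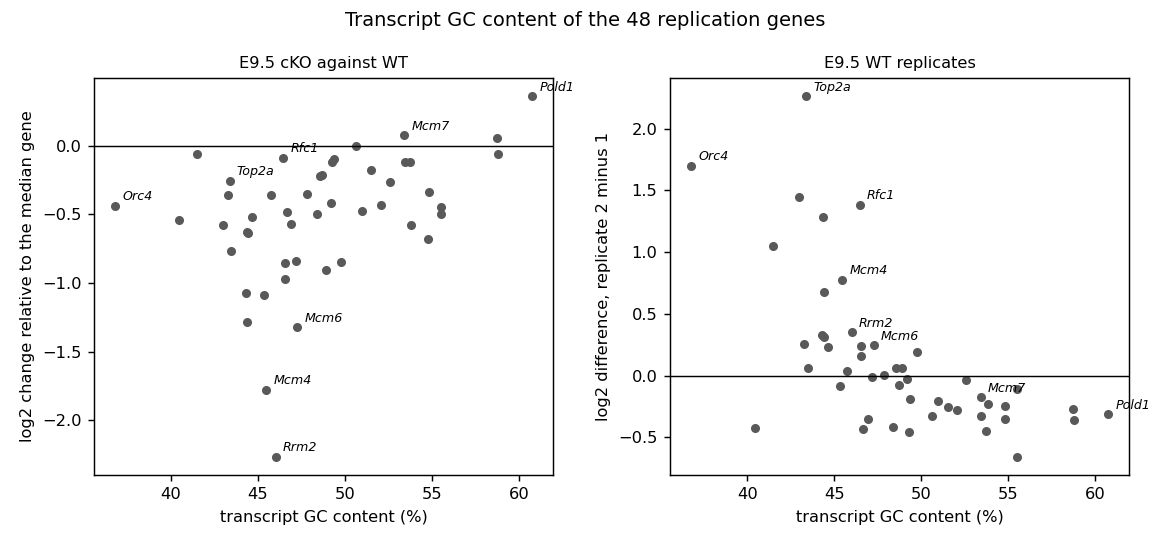
Transcript GC content in percent of the 48 replication genes against the E9.5 log2 difference between cKO and WT (left) and against the log2 difference between the 2 E9.5 WT replicates (right), 1 point per gene. *Top2a* lies highest on the right, at 2.26, and *Rrm2* lowest on the left, at -2.27.

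At E8.5 the members were closer to WT on the relative scale, and about as far from it as at E9.5 in FPKM as deposited. Their median relative log2 difference was -0.17, beside 0.02 over all tested genes, with 35 of 48 below 0, beside 46.7% of genes. Both cKO libraries were below WT without overlap for 15 members (background 12.1%) and above for 0 (background 14.9%). No member was called by limma in either direction (background 0% lower and 0.0299% higher), and 0 were lower and 0 higher at an unadjusted p under 0.05 (background 0.998% and 1.75%). The lowest were *Rpa3* at -0.47 and *Cdc6* at -0.42, and the highest *Pola2* at 0.32 and *Mcm7* at 0.24. As deposited, without centring, the median was -0.48 at E8.5 (47 of 48 below 0, background 80.7%), beside -0.53 at E9.5, and 7 members had an unadjusted p under 0.05 at E8.5, each of them lower in cKO (background 7.55%). With no filter on low values the E8.5 median was -0.31, with 43 below 0 (background 41.3%). *Pola2* was at 80.3 and 51.9 FPKM in WT and at 54.6 and 77.4 FPKM in cKO, which overlapped. The median was -0.02 without E8.5 cKO replicate 2, the library with high decidual markers. It was -0.36 without cKO replicate 1, the E8.5 library with the highest yolk sac endoderm markers. It was -0.02 without WT replicate 1 and -0.29 without WT replicate 2. Without E8.5 cKO replicate 2 the lone cKO library was below both WT libraries for 19 members (background 29.1%) and above both for 14 (background 43.5%).

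The difference between the stages was tested as an interaction. Its median over the members was -0.26 (log2, E9.5 effect minus E8.5 effect), beside -0.06 over all tested genes, with 39 of 48 below 0 (background 55.1%). As deposited, without centring, that median was -0.0175, with 25 of 48 below 0 (background 35.0%). No member was called in either direction by limma (background 0.00998% lower and 0.0299% higher), and 2 were lower and 0 higher at an unadjusted p under 0.05 (background 2.96% and 2.74%). The 2 were *Rrm2* at -2.46 (SE 0.89, adjusted p = 0.809) and *Mcm4* at -1.40 (SE 0.51, adjusted p = 0.824), and *Pcna* followed at -1.13 (SE 0.52). For *Pcna*, WT at E8.5 gave 279 and 238 FPKM and cKO gave 203 and 228 FPKM, a relative difference of 0.04 at E8.5 beside -1.09 at E9.5. The median interaction was -0.08 without E8.5 cKO replicate 1, -0.11 without E8.5 WT replicate 2 and -0.11 without E9.5 cKO replicate 1. It was -0.45 without E8.5 cKO replicate 2 and without E9.5 cKO replicate 2, and -0.44 without E8.5 WT replicate 1.

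**Figure D5:**
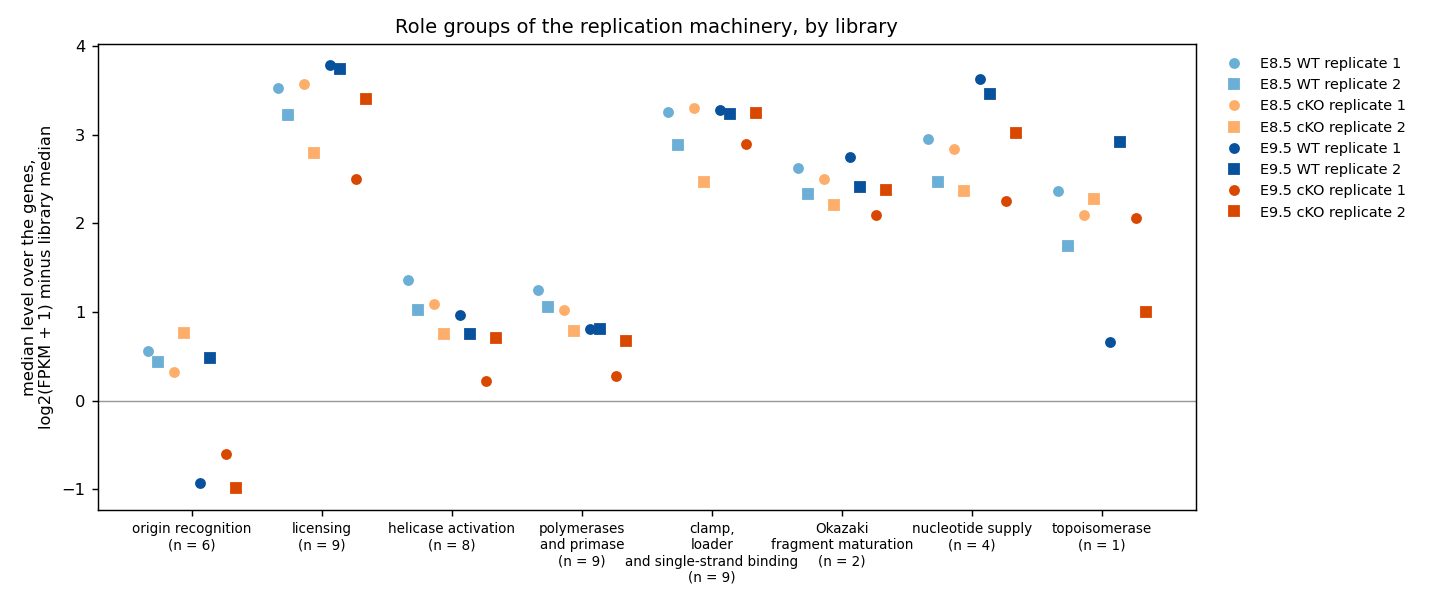
Median level of each role group in each library, as log2(FPKM + 1) minus the median of all tested genes in the library (circles replicate 1, squares replicate 2). Licensing, clamp and nucleotide supply genes lie highest in every library, and the nucleotide supply genes of E9.5 cKO are at 2.25 and 3.02 against 3.63 and 3.46 in E9.5 WT.

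Between E8.5 and E9.5 in WT hearts, role groups went different ways relative to the median gene. Marker sums differed between these stages too. Cardiomyocyte markers went from 28301 and 46636 FPKM to 63636 and 61916 FPKM, and yolk sac endoderm markers from 780 and 2688 FPKM to 6793 and 5095 FPKM. Decidual markers went the other way, from 1264 and 2313 FPKM to 851 and 976 FPKM, as did leukocyte markers. Their part was not tested. The library medians of tested genes were 9.90 and 9.55 FPKM at the earlier stage and 4.31 and 4.49 FPKM at the later one. FPKM of most genes was thus lower at E9.5. Changes are given on the relative scale unless another scale is named. The members' median was 0.06, beside 0.16 over all genes, with 22 of 48 below 0 (background 38.7%). All 6 ORC genes were below 0, with a median of -0.68, while 8 of 9 licensing genes were above, with a median of 0.35, and nucleotide supply had a median of 0.66, although as deposited all 48 members were below 0 (background 89.9%). After quantile normalization 35 members were below 0 (background 51.6%), with a median of -0.17. *Mcm3* (-0.09), *Mcm4* (-0.11) and *Gmnn* (-0.46) of licensing and *Rrm2* (-0.30) of nucleotide supply turned below 0 under that scaling. With no filter on low values, *Cdt1* (-0.04), *Mcm3* (-0.001), *Mcm4* (-0.27) and *Gmnn* (-0.32) turned below 0. The contrast between role groups thus depended on the scaling. *Orc1* went from 7.77 and 6.92 FPKM to 1.47 and 1.61 FPKM (relative log2 -0.73, SE 0.22, adjusted p = 0.115), and *Rrm1* from 103 and 75.02 FPKM to 74.9 and 96.2 FPKM (relative log2 0.94, SE 0.45, adjusted p = 0.301). *Gins3* was at 0.76, *Mcm7* at 0.85 and *Pold2* at 0.84. As deposited, without centring, *Mcm7*, *Pold2* and *Rrm1* were at -0.14, -0.15 and -0.05. *Orc4* had 14.4 and 12.4 FPKM in WT at E8.5, and its difference of -0.80 was 0.05 without E9.5 WT replicate 1, whose value of 1.27 FPKM stood against 6.60 FPKM in replicate 2. *Orc2* and *Orc3* split likewise, with relative log2 levels of -0.80 and -1.05 in that replicate 1 against 0.49 and 0.39 in replicate 2. Their E8.5 WT levels were 0.62 and 0.54 (*Orc2*) and 0.36 and 0.16 (*Orc3*). The ORC median thus leaned on 1 library, although 4 of the 6 genes were lower at E9.5 without overlap.

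In this comparison 0 members were called lower and 0 higher by limma (background 0.499% and 4.14%), and 1 was lower and 2 higher at an unadjusted p under 0.05 (background 3.40% and 16.3%). Libraries did not overlap for 11 members lower at E9.5 (background 16.9%) and 16 higher (background 40.4%). Scaling changed these counts: as deposited, 24 members were called lower (background 46.7%). Over all genes 50 were called lower and 415 higher, as deposited 4683 lower and 140 higher, and after quantile normalization 27 lower and 88 higher. The members' median was 0.20 without E9.5 WT replicate 2, 0.19 without E8.5 WT replicate 1 and -0.03 without E8.5 WT replicate 2.

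In cKO hearts the members' median from E8.5 to E9.5 was -0.33, beside 0.11 over all genes, with 33 of 48 below 0 (background 42.3%). This comparison shares its libraries with those between genotypes, so the values are set side by side only. *Prim1* had the smallest adjusted p, from 26.2 and 24.9 FPKM to 5.69 and 6.94 FPKM (relative log2 -1.11, SE 0.29, adjusted p = 0.0615), where WT had -0.38. *Mcm4* was at -1.31 (adjusted p = 0.0718) where WT had 0.08, and *Rrm2* at -1.86 (adjusted p = 0.117) where WT had 0.60. All 6 ORC genes were again below 0, with a median of -1.01, and 4 of them were among the 9 members lower at an unadjusted p under 0.05. *Pold2*, at 0.85, and *Pold1*, at 0.84, were highest, and *Pold1* was the 1 member higher at that threshold. Background shares at that threshold were 6.86% lower and 17.5% higher. With limma 0 were called lower and 0 higher (background 0.509% and 4.33%), and libraries did not overlap for 20 members lower (background 19.1%) and 4 higher (background 33.3%).

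Calls in that comparison turned on libraries and scale. Without E8.5 cKO replicate 1, 3 members were called lower and 2 higher (background 5.56% and 14.0%), and without either E9.5 WT library, which enters only through the shared spread, 2 were called lower (background 0.988% without replicate 1 and 1.04% without replicate 2). Without E9.5 cKO replicate 1 the median was -0.07. As deposited 26 members were called lower, and with no filter on low values 10. Over all genes 51 were called lower and 434 higher, as deposited 2857 lower and 205 higher, and with no filter 1018 lower and 1013 higher.

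Spread between replicates was uneven. Replicates were at least 1.5-fold apart for 4 members in E8.5 WT, 13 in E8.5 cKO, 9 in E9.5 WT and 15 in E9.5 cKO. The shares over all tested genes were 13.5%, 38.04%, 20.4% and 16.0%, so E9.5 cKO was the group where members (31.2%) were apart more often than genes at large. In that group the median member was higher in replicate 2 than in replicate 1 by 0.36 on the log2 scale.

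Other genes of S phase were taken from lists that, like the members, were chosen with earlier results of these data known. Of 42 other replication factors 38 were tested, with a median of -0.38 at E9.5 and 34 below 0 (background 50.6%). With limma 0 were called (background 0.00998% lower and 0.309% higher). At an unadjusted p under 0.05, 11 were lower and 1 higher (background 7.70% and 6.70%). *Tipin*, of the fork protection complex, was at 30.1 and 65.2 FPKM in WT and at 10.2 and 16.1 FPKM in cKO (log2 -1.65, adjusted p = 0.160). *Slbp*, the histone stem-loop binding protein, was at -1.37, *Rnaseh2b* at -1.19, and *Pold4*, the small subunit of polymerase delta, at 1.11. Like *Pold1*, *Pold4* was above WT without overlap, at 3.53 and 3.55 FPKM in WT and at 10.4 and 6.73 FPKM in cKO.

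Among 24 regulators of E2F and RB, of which 18 were tested, *Cdkn1a* was the 1 gene called at E9.5 (background 0.00998% lower and 0.309% higher). *Cdkn1a* encodes p21, an inhibitor of cyclin-dependent kinases that also binds PCNA. It rose from 4.19 and 4.35 FPKM in WT to 24.6 and 24.4 FPKM in cKO (log2 2.34, SE 0.33, adjusted p = 0.0346). That call was lost as deposited (adjusted p = 0.0648), within GC deciles (adjusted p = 0.0689), with a replicate block (adjusted p = 0.059) and without any 1 of the 4 E9.5 libraries (adjusted p between 0.111 and 0.441), with log2 values of 2.15 to 2.43. *Ccna2* and *Ccne1*, cyclins of S phase and its entry, were at -1.36 and -0.93, and *E2f1* at 0.86. At an unadjusted p under 0.05, 3 regulators were lower and 2 higher (background 7.70% and 6.70%). All 22 mitotic genes were tested, with a median of -0.30, 18 below 0 (background 50.6%) and 0 called. At an unadjusted p under 0.05, 3 mitotic genes were lower and 0 higher (background 7.70% and 6.70%). *Mad2l1* and *Ccnb1* were lowest there, at -1.44 and -1.43.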

How the data were processed

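Total RNA from 8 heart samples was amplified by the authors with a SMART template-switching method and sequenced on a HiSeq, and per the methods reads were mapped to mm9 with BWA. The deposited values are FPKM per gene; the program that made them is not given in the sources used here. Columns named mu and nc were read as cKO and WT. Gene positions in the table matched RefSeq starts of GRCm38 within 1000 bp for 91.7% of tested genes found there (5.07% for NCBIM37), so GRCm38 coordinates are given, counted from 1. The 24930 deposited entries, which included 285 repeated symbols and 27 date-like entries, were reduced to 24385 features. Repeated symbols were kept once rather than dropped. Tested genes had to average 1 FPKM or more, and the test was run on log2(FPKM + 1), centred on each library's median, with limma 3.58.1 in R 4.3.3 (trend, 4 group means) and Benjamini-Hochberg adjustment over all 10018 genes. Absolute depth is not given; relative depth was read from genes under 0.1 FPKM. Values per library, at the stages described, are given in each role group for the member highest in FPKM, those lowest and highest at E9.5 and the most stage-dependent in WT, and for members at an end of a range; *Mcm6*, *Rpa1*, *Gmnn*, *Dbf4* and the within-library ratios were chosen after their values were seen. Fitted differences of the remaining members are given so that all 48 are accounted for. Members and lists were chosen with earlier results of these data known. P-values measure the spread between 2 libraries a group. The fit was tested on simulated data.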

Additional observations from a re-analysis of the deposited data

How the results depend on the processing

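The members' median at E9.5 stayed between -0.55 and -0.29 when single libraries were left out and between -0.54 and -0.35 under other scalings, pseudocounts and filters, and the number lower at an unadjusted p under 0.05 ran from 2 to 17 over the libraries left out. Fitting only the 4 E9.5 libraries called 1 member, with 16 lower and 98 higher over all genes. As deposited, without centring, the medians were -0.48 at E8.5 and -0.0175 for the difference between stages. Between stages they were -0.93 in WT (24 called lower, beside 46.7% of all genes) and -1.08 in cKO (26 called lower, beside 28.5%). With no filter on low values they were -0.29 in WT (3 called lower, 0 higher, beside 3.48% and 26.5% of all genes) and -0.62 in cKO (10 called lower, beside 1018 of all 19580 genes). In cKO across stages, median-ratio scaling, a pseudocount of 0.1 and a minimum mean of 5 FPKM, which kept 43 members, each called 1 member lower, beside 0.769%, 0.739% and 1.27% of all genes. Leaving out 1 library gave medians from -0.42 to -0.0703 there. The causes were not tested.

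Signs of single genes at E9.5 turned within GC deciles for *Mcm7* (-0.16), *Pold2* (-0.25), *Rfc1* (0.20), *Top2a* (0.00104), *Pola1* (0.0874) and *Pole* (0.014), with no filter for *Mcm7* (-0.0035) and *Pold2* (-0.0218), as deposited for *Pold2* (-0.00586), under median-ratio scaling for *Pole* (0.00245), with a minimum mean of 5 FPKM for *Cdt1* (0.00522), and after quantile normalization for *Gins2* (0.0834), *Cdt1* (0.0472), *Rfc5* (0.0999) and *Rpa2* (0.00990). With 1 library left out, ranges at E9.5 were -1.29 to 0.41 for *Orc4*, -0.20 to 0.35 for *Mcm7*, -0.28 to 0.0466 for *Gins2*, -0.077 to 0.19 for *Pold2*, -0.78 to 0.60 for *Rfc1*, -0.34 to 0.11 for *Lig1* and -1.39 to 0.87 for *Top2a*, and -1.65 to 0.0467 for *Orc4* between stages in WT. As deposited, *Mcm7*, *Pold2* and *Rrm1* between stages in WT were at -0.14, -0.15 and -0.049.

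Replicate numbers did not pair the samples: correlations of same-numbered deviations ran from -0.116 to 0.195. With a replicate block the E9.5 median stayed at -0.46 with 11 members lower at an unadjusted p under 0.05 (7.55% of all genes) and 0 called, while the call of *Cdkn1a* was lost (adjusted p = 0.059). With 2 libraries a group and no read counts, differences of several times the SE of a gene could go uncalled. *Mcm4* at E9.5, at -1.78 with an SE of 0.36, was not called (limma, adjusted p = 0.101).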
